A study of Homo sapiens with 6 samples.

Results

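The transcripts of 56 genes that carry cells through mitosis were examined in WM164, a human melanoma line with the BRAF V600E mutation. The genes were taken by symbol from a list of mitosis and spindle genes, and all 56 were found among the 60504 rows of the gene table. They were divided by textbook function into 8 roles, which run from mitotic entry to chromosome structure. The study asked how an HDAC8 expression vector reshapes the transcriptome of melanoma cells, HDAC8 being a class I histone deacetylase. WM164 cells had been transfected with a plasmid that carried HDAC8 or with the empty expression vector (EV), by lipofection, and both were kept in hygromycin. Each group had 3 libraries, written here as EV 1 to EV 3 and HDAC8 1 to HDAC8 3 after the replicate numbers in the labels. The sources used here do not say whether the transfected cells were clones or pools, nor whether the replicates were separate transfections, so p-values measure the spread between these libraries.

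Mitosis is the stage in which replicated chromosomes are condensed, attached to a bipolar spindle of microtubules and pulled apart before the cell divides. Most genes of this kind are silent in resting cells and are transcribed late in the cell cycle, when the FOXM1, B-Myb and MuvB regulators act on their promoters, often through an element called CHR and through CCAAT boxes. In a growing tumor line their transcripts therefore follow the share of cells in late cycle as well as the amount made per cell. In bulk RNA, fewer cells in mitosis and less RNA per cell cannot be told apart.

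The HDAC8 transcript itself was measured first. Its normalized count, the deposited count divided by the DESeq2 size factor of its library, was 383.8, 404.4 and 478.8 in EV 1, 2 and 3, against 484.8, 445.5 and 473.7 in HDAC8 1, 2 and 3. The groups overlapped, and the log2 fold change was 0.15 (SE 0.28, adjusted p = 0.856 by the DESeq2 Wald test), with a 95% interval of 0.75 to 1.63 for the fold. A rise of the transcript was not detectable at this spread, and the group is therefore called by its label throughout. The sequence of the plasmid was not used here, and whether reads of its transcript are counted as HDAC8 was not tested.

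The 6 libraries held 34741083 to 42041462 estimated reads. HDAC8 1 stood apart from HDAC8 2 and HDAC8 3. Across genes, the chi-square over its degrees of freedom was 153 and 102 between HDAC8 1 and the others of its group, against 26 between HDAC8 2 and HDAC8 3 and 39 to 47.3 among the EV libraries. Mitochondrial genes took 9.66% to 12.8% of the counts in EV and 4.46%, 7.94% and 7.63% in HDAC8 1, 2 and 3. All 8 melanoma markers had counts in every library. Of them, 6 (75%, against 5.44% of all genes) were lower in the libraries labelled HDAC8 past both thresholds used below. Of 12 markers of other cell types, 4, among them EPCAM, CDH5 and DCN, had no counts in any library and 7 entered the test. Their summed normalized count was 2350 to 2815 in EV and 1394 to 2390 in the libraries labelled HDAC8, most of it LUM, and without LUM it was 144.8 to 289.6 and 194.8 to 340.3. CD3E was at 0 in all EV libraries and at 78.7, 91.1 and 50.1 in HDAC8 1, 2 and 3, while PTPRC, which marks all leukocytes, did not exceed 2.6. The part of these differences in the results below was not tested.

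The mitosis and spindle genes had counts in every library, and few of them passed the test. With all 56 genes tested, ECT2, a guanine nucleotide exchange factor that starts the cleavage furrow, and AURKB, the kinase that corrects chromosome attachment, were higher in the libraries labelled HDAC8 past both thresholds, an adjusted p under 0.05 and a log2 fold change of 0.58 or more in either direction. ECT2 and AURKB are 3.57% of the members, and over all genes 5.57% were called higher and 5.44% lower, 11.0% in all. By DESeq2, 0 members were lower past both, as by edgeR, against 1 by limma-voom and 2 at an unadjusted p under 0.05. At any fold change, 5 members passed the adjusted p in the upward direction (8.93%, against 6.63% of all genes) and 2 in the downward direction (3.57%, against 6.38%). KIF11, INCENP and KIF23 joined the higher genes, and PLK1 and MKI67 were the lower ones. The number called higher past both thresholds was 0 without EV 1 or HDAC8 2, 1 without EV 3 or HDAC8 3 and 3 without HDAC8 1, and the number called lower was 2 without HDAC8 2 and 1 without EV 1, EV 2, HDAC8 1 or HDAC8 3. Over all genes, the number called in these fits ran from 877 to 1218 higher and from 746 to 1378 lower.

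The log2 fold change was above 0 for 27 members and below 0 for 29, with a median of -0.02 over the members and -0.00 over all genes tested. It ran from -0.63 for CKS2 to 0.76 for ECT2, and its SD over the members was 0.34, against 0.96 over the 14451 genes whose normalized count averaged at least 50. The SD of those genes includes extreme values, from -25.09 to 22.45. The lower and upper quartiles were closer, at -0.27 and 0.27 over the members and -0.34 and 0.35 over those genes. In 10 members all libraries labelled HDAC8 were above all EV libraries (17.9%, against 11.3% of all genes), and in 11 all were below (19.6%, against 12.7%). Of the genes with a mean count of at least 50, 17% were above and 18% below. The median EV count was 3582 over the members and 804.3 over these genes.

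**Figure D1:**
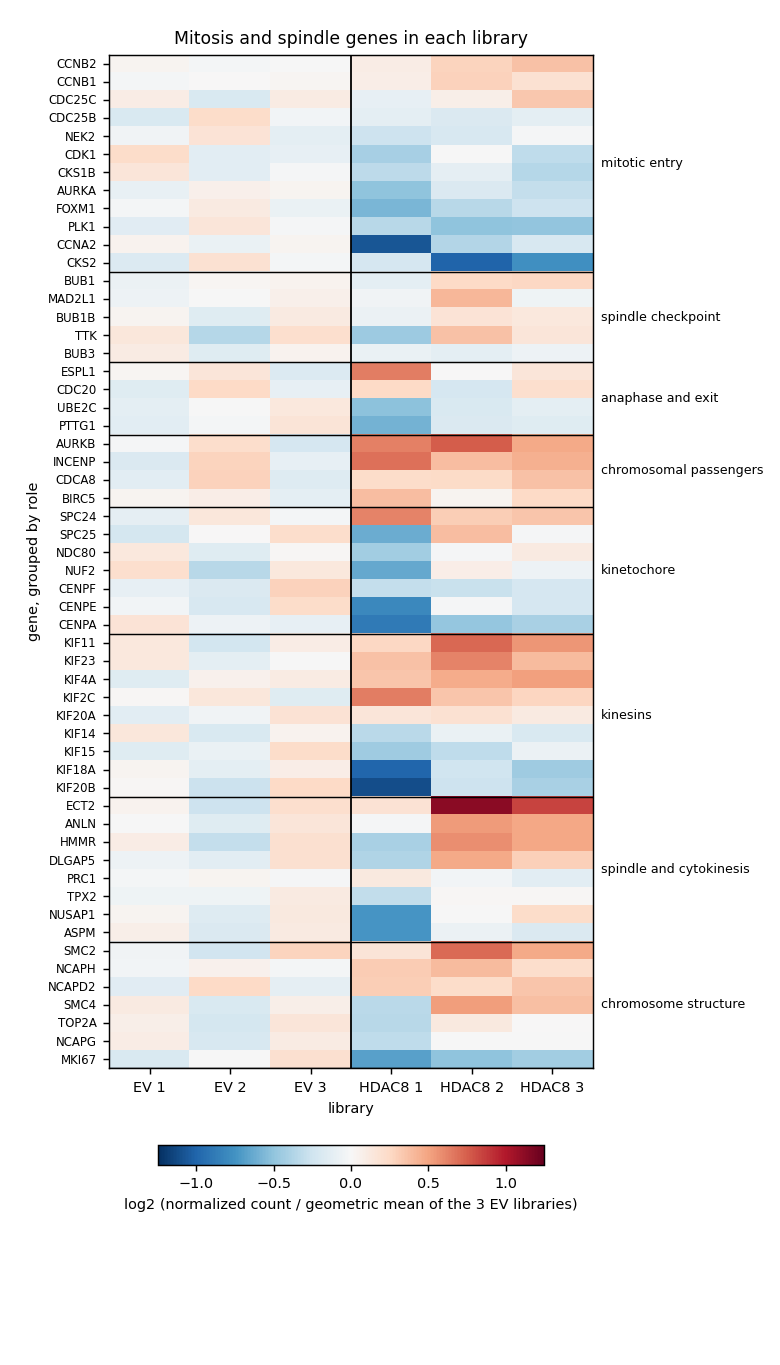
The color of each cell is the log2 of the normalized count in a library (columns) over the geometric mean of the 3 EV libraries for each of the 56 genes (rows, grouped by role), with red for higher and blue for lower. AURKB and INCENP are red in all libraries labelled HDAC8, MKI67 and PLK1 are blue in all of them, and HDAC8 1 holds most of the dark blue cells of genes such as KIF20B, CCNA2 and KIF18A.

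Promoter sequences of the 7 genes past the adjusted p are shown, since these are the members on which the comparison turns. They were read from RefSeq (GRCh38.p14) and run from 160 bases before to 20 bases after the first transcription start listed for each gene, 5′ to 3′ on the strand of the gene. Capitals mark matches to the CHR element, searched as TTTGAA or TTCGAA, or to the CCAAT box, searched as CCAAT, each on both strands.
ECT2, chr3:172750566-172750745, + strand: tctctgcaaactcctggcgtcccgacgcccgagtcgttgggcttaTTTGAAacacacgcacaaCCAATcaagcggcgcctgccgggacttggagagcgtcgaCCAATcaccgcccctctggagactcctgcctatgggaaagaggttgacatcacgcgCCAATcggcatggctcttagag
AURKB, chr17:8210206-8210385, - strand: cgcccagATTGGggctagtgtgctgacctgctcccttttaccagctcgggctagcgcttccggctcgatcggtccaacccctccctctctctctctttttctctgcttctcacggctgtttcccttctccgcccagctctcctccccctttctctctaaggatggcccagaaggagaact
KIF11, chr10:92592970-92593149, + strand: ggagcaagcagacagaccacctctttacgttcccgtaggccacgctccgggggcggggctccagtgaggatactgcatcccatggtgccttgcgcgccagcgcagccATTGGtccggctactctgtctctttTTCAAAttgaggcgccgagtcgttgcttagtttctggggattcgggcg
INCENP, chr11:62123851-62124030, + strand: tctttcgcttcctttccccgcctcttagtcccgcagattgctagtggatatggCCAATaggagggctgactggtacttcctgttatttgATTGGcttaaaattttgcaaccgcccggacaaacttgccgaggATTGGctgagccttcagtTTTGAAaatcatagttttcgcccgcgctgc
KIF23, chr15:69414189-69414368, + strand: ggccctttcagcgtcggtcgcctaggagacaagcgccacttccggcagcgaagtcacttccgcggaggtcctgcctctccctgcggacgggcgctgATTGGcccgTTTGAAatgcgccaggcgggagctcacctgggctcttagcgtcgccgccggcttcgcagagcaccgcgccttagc
PLK1, chr16:23678729-23678908, + strand: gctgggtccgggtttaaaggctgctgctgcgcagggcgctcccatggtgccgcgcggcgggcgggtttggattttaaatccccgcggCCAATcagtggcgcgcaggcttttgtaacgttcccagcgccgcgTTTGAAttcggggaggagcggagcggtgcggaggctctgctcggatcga
MKI67, chr10:128126404-128126583, - strand: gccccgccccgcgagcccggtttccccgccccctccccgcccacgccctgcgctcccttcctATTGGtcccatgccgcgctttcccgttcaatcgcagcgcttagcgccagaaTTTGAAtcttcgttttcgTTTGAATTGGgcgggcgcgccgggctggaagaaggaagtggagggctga

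CHR letters stood in 6 of these 7 stretches, AURKB being the exception, and CCAAT letters in all of them. KIF11, which was higher, and PLK1, which was lower, both had CCAAT letters followed by CHR letters, at -53 and -28 from the start in KIF11 and at -73 and -29 in PLK1. In MKI67 the second CHR match and the last CCAAT match shared a base. Over the full RefSeq windows, which start 250 bases before and end 50 bases after the transcription start, 49 of the 56 members were found with 61 windows, and AURKA, BIRC5, BUB3, FOXM1, TPX2, TTK and UBE2C were not in the table used. CHR letters occurred in 42 of the 61 windows (68.9%), against 16.4% of all 35116 promoters, and CCAAT letters in 72.1% against 34.6%. Both occurred in 54.1% of the member windows and in 6.38% of all. Within the last 60 bases before the start, CHR letters occurred in 41% of the member windows and in 3.17% of all. A match describes the letters only and does not show that a factor is bound.

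**Figure D2:**
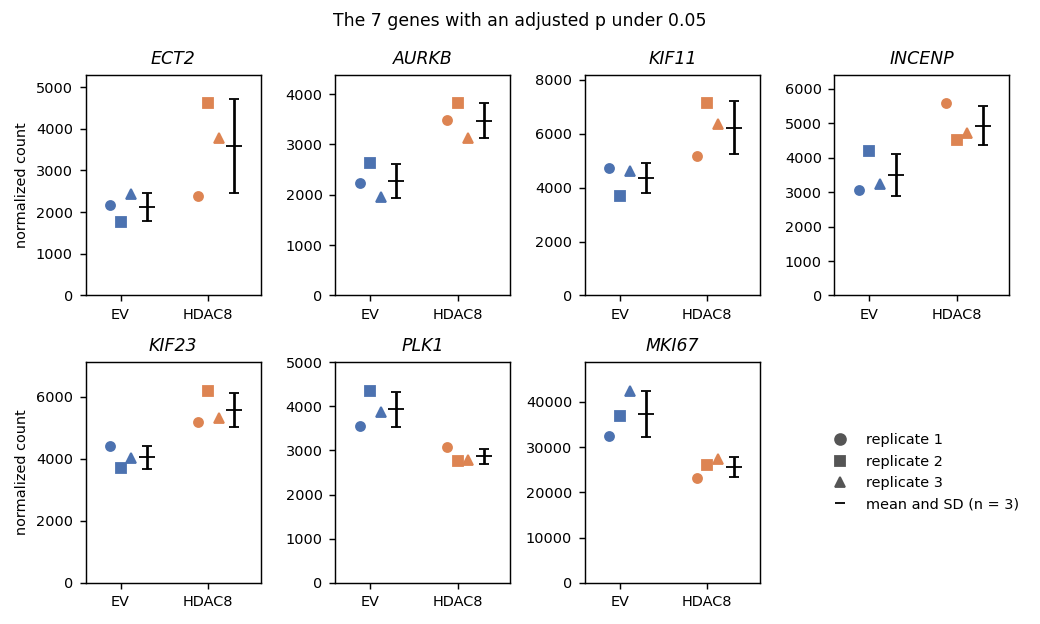
Each panel plots the normalized count (axis from 0) of a gene in the 3 EV and the 3 libraries labelled HDAC8, with the mean and SD of each group as bars. In AURKB, INCENP, KIF11, KIF23, PLK1 and MKI67 the groups do not overlap, and in ECT2 the HDAC8 1 point (2387) lies among the EV points.

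Of the genes of mitotic entry, 1 passed the test in the fit of all libraries, PLK1, which was lower in the libraries labelled HDAC8. Cyclin B and CDK1 form the kinase that starts mitosis, and PLK1, AURKA and the CDC25 phosphatases switch it on. Among the 12 genes of this role the log2 fold change was below 0 in 9 and above 0 in 3, with a median of -0.25. PLK1, the Polo kinase that acts at centrosomes, kinetochores and the midbody, had 3561, 4356 and 3877 normalized counts in EV and 3071, 2767 and 2775 in the libraries labelled HDAC8. Every one of the latter was below every EV library, and PLK1 fell by 0.45 on the log2 scale (SE 0.15, adjusted p = 0.0304), a fold of 0.73 with a 95% interval of 0.59 to 0.90. Its adjusted p was 0.0593, 0.17 and 0.128 without EV 1, 2 and 3, and 0.0935 and 0.157 without HDAC8 2 and 3. It was 0.0832 by edgeR's quasi-likelihood test, 0.0923 by limma-voom, 0.0624 with total-count size factors and 0.11 with the replicate number as a block. The PLK1 transcript shares 58 bases of exon with ERN2 on the other strand, which had mean counts of 7.1 and 4.1.

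CKS2, a small partner of CDK1, had the lowest fold change of all members. Its counts were 989.9, 1271 and 1093 in EV and 960.3, 556.1 and 655.5 in the libraries labelled HDAC8, the closest to EV being HDAC8 1. The log2 fold change of -0.63 (SE 0.26) missed the adjusted threshold at 0.095, and without HDAC8 1 it was -0.89 (adjusted p = 0.00194). Its paralog CKS1B stood at -0.26 (SE 0.19, adjusted p = 0.45).

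FOXM1, the transcription factor that drives many genes of the list, counted 5687, 6276 and 5459 in EV and 3901, 4555 and 4859 in the libraries labelled HDAC8. All of the latter were lower, and the log2 fold change was -0.39 (SE 0.15, adjusted p = 0.0637). Its exons overlap ITFG2 on the other strand by 782 bases, and ITFG2 had a log2 fold change of -0.21 (adjusted p = 0.711). CCNA2 (cyclin A2) and AURKA (Aurora A, the kinase of the spindle poles) also had all libraries labelled HDAC8 below EV, with log2 fold changes of -0.50 (SE 0.22, adjusted p = 0.126) and -0.32 (SE 0.15, adjusted p = 0.177). In CCNA2, 1184 counts in HDAC8 1 set it apart from 1932 and 2175 in HDAC8 2 and 3, and from 2350 to 2575 in EV.

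Both B-type cyclins lay on the other side. CCNB1 had 4978, 5080 and 5157 counts in EV and 5368, 6205 and 5800 in the libraries labelled HDAC8, and CCNB2 had 2502, 2408 and 2435 against 2613, 2963 and 3150. Neither overlapped between groups, yet the differences were small and not past the test, at 0.19 (SE 0.14, adjusted p = 0.441) and 0.25 (SE 0.16, adjusted p = 0.366) on the log2 scale. With normalization within GC bins and no HDAC8 1, described below, CCNB1 and CCNB2 passed (0.24, adjusted p = 0.00811, and 0.32, adjusted p = 0.000483). With either change alone they did not. In the fit with both changes, 5 genes of the role passed downward, PLK1 among them. The others were CCNA2 (-0.28, adjusted p = 0.0135), AURKA (-0.24, adjusted p = 0.0483), FOXM1 (-0.30, adjusted p = 6.92e-05) and CKS2 (-0.88, adjusted p = 4.19e-05). CDK1, the kinase of the B-type cyclins, had 2796, 2188 and 2233 against 1797, 2390 and 1922 counts. Its groups overlapped, with a log2 fold change of -0.24 (SE 0.19, adjusted p = 0.51). The phosphatases CDC25B and CDC25C and NEK2, a kinase that separates centrosomes, overlapped between groups as well, with log2 fold changes of -0.15, 0.11 and -0.16.

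Spindle checkpoint genes did not separate the groups in the fit of all libraries. The checkpoint holds cells in metaphase until every kinetochore is attached, with BUB1 and TTK as its kinases and BUB1B, MAD2L1 and BUB3 as its inhibitor subunits. The 5 genes had log2 fold changes of -0.09 to 0.14 with a median of 0.07, none passed the test by DESeq2, edgeR or limma-voom or at an unadjusted p under 0.05, and all overlapped between groups. BUB1 had 5073, 5420 and 5501 counts in EV and 4893, 6332 and 6382 in the libraries labelled HDAC8 (log2 fold change 0.14, SE 0.15, adjusted p = 0.691). It passed upward with normalization within GC bins and no HDAC8 1, described below (0.25, adjusted p = 0.0145), and with neither change alone. BUB1B had 3658, 3221 and 3863 against 3400, 4011 and 3902 (0.07, SE 0.15, adjusted p = 0.871). The 95% intervals of their folds were 0.89 to 1.35 and 0.85 to 1.30, so that a change of the size of ECT2 was outside both.

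Of 4 genes of anaphase and mitotic exit, 0 passed the test by DESeq2, edgeR or limma-voom, and 0 were under an unadjusted p of 0.05. CDC20 is the activator and UBE2C the ubiquitin-conjugating enzyme of the anaphase-promoting complex, whose target PTTG1 (securin) restrains the protease ESPL1 (separase). ESPL1 had 4503, 4914 and 3954 counts in EV and 6895, 4455 and 4924 in the libraries labelled HDAC8, so that its log2 fold change of 0.28 (SE 0.18, adjusted p = 0.375) came with 1 high library. Without HDAC8 1 it was 0.07 (adjusted p = 0.844). CDC20 had 3213, 4234 and 3326 against 4221, 3082 and 4133 (0.09, SE 0.18, adjusted p = 0.874). In UBE2C and PTTG1 all libraries labelled HDAC8 were below EV, at -0.27 (SE 0.16, adjusted p = 0.33) and -0.30 (SE 0.18, adjusted p = 0.322) on the log2 scale.

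The chromosomal passenger complex was the role with the highest median. AURKB is its kinase, and INCENP, BIRC5 (survivin) and CDCA8 (borealin) hold the kinase at centromeres and later at the spindle midzone. All 4 genes had a log2 fold change above 0, with a median of 0.38, and 2 passed the adjusted p (6.63% of all genes did so upward), against 1, AURKB, by edgeR and by limma-voom. AURKB had 2227, 2631 and 1953 counts in EV and 3478, 3817 and 3119 in the libraries labelled HDAC8, with a gap between the groups and HDAC8 1 in the middle of its own. It rose by 0.61 on the log2 scale (SE 0.17, adjusted p = 0.00587), 1.53-fold with a 95% interval of 1.21 to 1.94. Its adjusted p was 0.0588 without EV 1 and 0.102 without EV 3. INCENP had 3055, 4188 and 3226 against 5582, 4511 and 4717 counts, and the nearest pair was EV 2 and HDAC8 2. It rose 1.41-fold (95% interval 1.12 to 1.78, log2 fold change 0.50, SE 0.17, adjusted p = 0.0309). The adjusted p of INCENP was 0.233, 0.207, 0.0592 and 0.0916 without EV 1, EV 3, HDAC8 1 and HDAC8 3, and 0.0667 by edgeR, 0.0636 by limma-voom and 0.0814 with the replicate block. BIRC5 and CDCA8 overlapped between groups, with 0.23 (SE 0.17, adjusted p = 0.484) and 0.27 (SE 0.18, adjusted p = 0.419).

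No kinetochore gene of the list passed the test in either direction in the fit of all libraries. NDC80, NUF2, SPC24 and SPC25 make up the complex that grips microtubules, CENPA is the histone variant that marks the centromere, CENPE is a kinetochore motor and CENPF a large kinetochore protein. In 6 of the 7 the log2 fold change was below 0 and in SPC24 above 0, with a median of -0.19. By DESeq2, edgeR and limma-voom 0 passed, with 1 gene, CENPA, under an unadjusted p of 0.05. With normalization within GC bins, described below, CENPA did pass downward (-0.57, adjusted p = 0.0434). With GC bins and no HDAC8 1, CENPA passed downward (-0.45, adjusted p = 0.0065) and SPC24 upward (0.36, adjusted p = 0.0138). CENPA had 1169, 998.4 and 966.4 counts in EV and 563.5, 743.5 and 788.4 in the libraries labelled HDAC8, without overlap (log2 fold change -0.58, SE 0.24, adjusted p = 0.0875). It overlaps SLC35F6 on the same strand by 138 bases of exon, and SLC35F6 fell by 0.54 (adjusted p = 0.00444), so that the CENPA value is uncertain. CENPF, the most counted of the role, had 20391, 19363 and 26763 in EV and 17820, 18146 and 18971 in the libraries labelled HDAC8 (-0.28, SE 0.15, adjusted p = 0.234). CENPE had 4763, 4231 and 5712 against 2778, 4805 and 4213 (-0.32, SE 0.20, adjusted p = 0.366).

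Within the NDC80 complex the fold changes had different signs. SPC24 had 657.5, 780.8 and 695.5 counts in EV and 1093, 876.7 and 904.9 in the libraries labelled HDAC8 (0.43, SE 0.23, adjusted p = 0.238), and the other 3 subunits ran from -0.19 to -0.04 with overlapping groups. The count of SPC24 is among those that may hold reads of an overlapping gene, which was not tested. SPC25 had 553.7, 648.1 and 750.7 in EV and 419.0, 845.9 and 638.1 in the libraries labelled HDAC8, and its largest distance was between HDAC8 1 and HDAC8 2.

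Kinesins, the microtubule motors of the spindle, spread widely in both directions. Their 9 log2 fold changes ran from -0.56 to 0.51, with 5 above 0 and 4 below. KIF11 is the motor that pushes the spindle poles apart, and it had 4743, 3706 and 4625 counts in EV and 5179, 7130 and 6352 in the libraries labelled HDAC8. Every library of the latter was higher, HDAC8 1 the least, and KIF11 rose 1.43-fold (95% interval 1.14 to 1.79, log2 fold change 0.51, SE 0.17, adjusted p = 0.0221). KIF23, the motor of the centralspindlin complex at the midzone, had 4429, 3698 and 4015 against 5190, 6202 and 5327 and rose 1.38-fold (95% interval 1.12 to 1.69, log2 fold change 0.46, SE 0.15, adjusted p = 0.0207). The adjusted p of KIF11 was 0.0513, 0.14, 0.0728, 0.122 and 0.117 without EV 1, EV 2, EV 3, HDAC8 2 and HDAC8 3, and that of KIF23 was 0.114, 0.129, 0.104 and 0.0745 without EV 2, EV 3, HDAC8 2 and HDAC8 3. With the replicate block they were 0.0774 and 0.0862, by edgeR 0.0489 and 0.071 and by limma-voom 0.0519 and 0.0651.

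KIF2C, which takes apart microtubules at centromeres, and KIF4A, a chromosome-bound motor, had all libraries labelled HDAC8 above EV and lay at the threshold. KIF2C had 4791, 5237 and 4283 against 7414, 6057 and 5734 counts (0.42, SE 0.16, adjusted p = 0.0505). KIF4A had 1914, 2205 and 2282 against 2712, 2934 and 3039 (0.44, SE 0.16, adjusted p = 0.0506).

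KIF20B and KIF18A were the lowest of the motors. KIF20B acts in late cytokinesis and KIF18A dampens chromosome movement in metaphase. KIF20B had 5115, 4212 and 6015 counts in EV and 2355, 4235 and 3825 in the libraries labelled HDAC8 (-0.56, SE 0.21, adjusted p = 0.0613), and the groups touched at EV 2 and HDAC8 2. KIF18A had 2590, 2318 and 2675 against 1271, 2116 and 1859, without overlap (-0.53, SE 0.21, adjusted p = 0.0707). In both, HDAC8 1 was the lowest of all libraries, and without it the log2 fold changes were -0.35 (adjusted p = 0.119) and -0.35 (adjusted p = 0.124). With normalization within GC bins, described below, they were -0.41 (adjusted p = 0.00537) and -0.38 (adjusted p = 0.0299), and with both changes the adjusted p was 0.0011 and 0.000224. KIF15, which can stand in for KIF11, had 1662, 1743 and 2162 against 1355, 1483 and 1755 counts (-0.28, SE 0.20, adjusted p = 0.442), with overlapping groups. The cytokinesis motors KIF14 and KIF20A overlapped too, at -0.21 and 0.15.

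Spindle assembly and cytokinesis held the largest rise. ECT2 had 2172, 1762 and 2428 counts in EV and 2387, 4609 and 3766 in the libraries labelled HDAC8. HDAC8 1 lay within the EV range and the other two lay above it. The fold was 1.69 (95% interval 1.24 to 2.30, log2 fold change 0.76, SE 0.23, adjusted p = 0.00983), and without HDAC8 1 the log2 fold change was 0.98 (adjusted p = 4.47e-07). The adjusted p of ECT2 was 0.0504, 0.0884, 0.111 and 0.0743 without EV 1, EV 2, HDAC8 2 and HDAC8 3. ANLN (anillin, the scaffold of the contractile ring) showed the same order, with 9580, 8684 and 10684 in EV and 9486, 13875 and 13473 in the libraries labelled HDAC8 (0.35, SE 0.17, adjusted p = 0.166, and 0.50 with adjusted p = 0.000156 without HDAC8 1).

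The other 6 genes of this role overlapped between groups, with log2 fold changes of -0.31 to 0.27. HMMR, a spindle-pole adaptor, had 2086, 1595 and 2251 in EV and 1481, 2922 and 2732 in the libraries labelled HDAC8. NUSAP1, which bundles spindle microtubules, had 4034, 3522 and 4272 against 2355, 3917 and 4623. In both, HDAC8 1 was set far from the rest of its group. DLGAP5, which stabilizes microtubules near chromosomes, had the same shape with 4780, 4559 and 5768 against 3850, 6977 and 6172 (0.17, SE 0.20, adjusted p = 0.724, and 0.38 with adjusted p = 0.0344 without HDAC8 1). TPX2, which activates AURKA on the spindle, had 9474, 9515 and 10651 against 7948, 9951 and 9949 (-0.09, SE 0.14, adjusted p = 0.814). ASPM, a spindle-pole protein, had 15852, 13316 and 16255 against 9044, 14319 and 13284 (-0.31, SE 0.17, adjusted p = 0.271). PRC1, the midzone crosslinker, was the closest to no difference, with means of 5502 and 5463 (95% interval of the fold 0.82 to 1.20).

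Chromosome structure genes included the most counted gene of the list, which was also the lower member with the smallest adjusted p. MKI67 encodes Ki-67, a coat protein of mitotic chromosomes used as a proliferation marker. It had 32444, 36940 and 42499 counts in EV and 23172, 26075 and 27427 in the libraries labelled HDAC8, and the groups were apart. MKI67 fell by 0.55 on the log2 scale (SE 0.14, adjusted p = 0.00149), a fold of 0.69 with a 95% interval of 0.57 to 0.83. Without EV 3 the adjusted p was 0.0636. It passed the adjusted p in 15 of 16 alternative fits, the most of the 7 genes, followed by AURKB (14) and ECT2 (12).

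TOP2A, the topoisomerase that untangles sister chromatids, had 20120, 16448 and 21279 in EV and 15036, 20889 and 19261 in the libraries labelled HDAC8 (-0.07, SE 0.16, adjusted p = 0.89). The 5 condensin subunits, which compact chromosomes, ran from -0.11 for NCAPG to 0.45 for SMC2, and 4 of them were above 0. SMC2 had 3336, 2917 and 4154 against 3826, 5588 and 4764 (SE 0.19, adjusted p = 0.1), and NCAPH, the only condensin subunit of the list without overlap, had 2561, 2730 and 2580 against 3260, 3461 and 3044 (0.31, SE 0.15, adjusted p = 0.179). SMC4 had 9988, 8087 and 9678 against 7310, 13226 and 11924 (0.23, SE 0.19, adjusted p = 0.563), and NCAPD2 had 10114, 13281 and 10342 against 13774, 13051 and 14174 (0.28, SE 0.14, adjusted p = 0.212). SMC4 shares 1553 bases of exon with TRIM59 and NCAPG 1634 bases with LCORL, each on the other strand. In all, 15 of the 56 members overlap an exon of another protein-coding gene, and strand-specific counting is not stated.

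**Figure D3:**
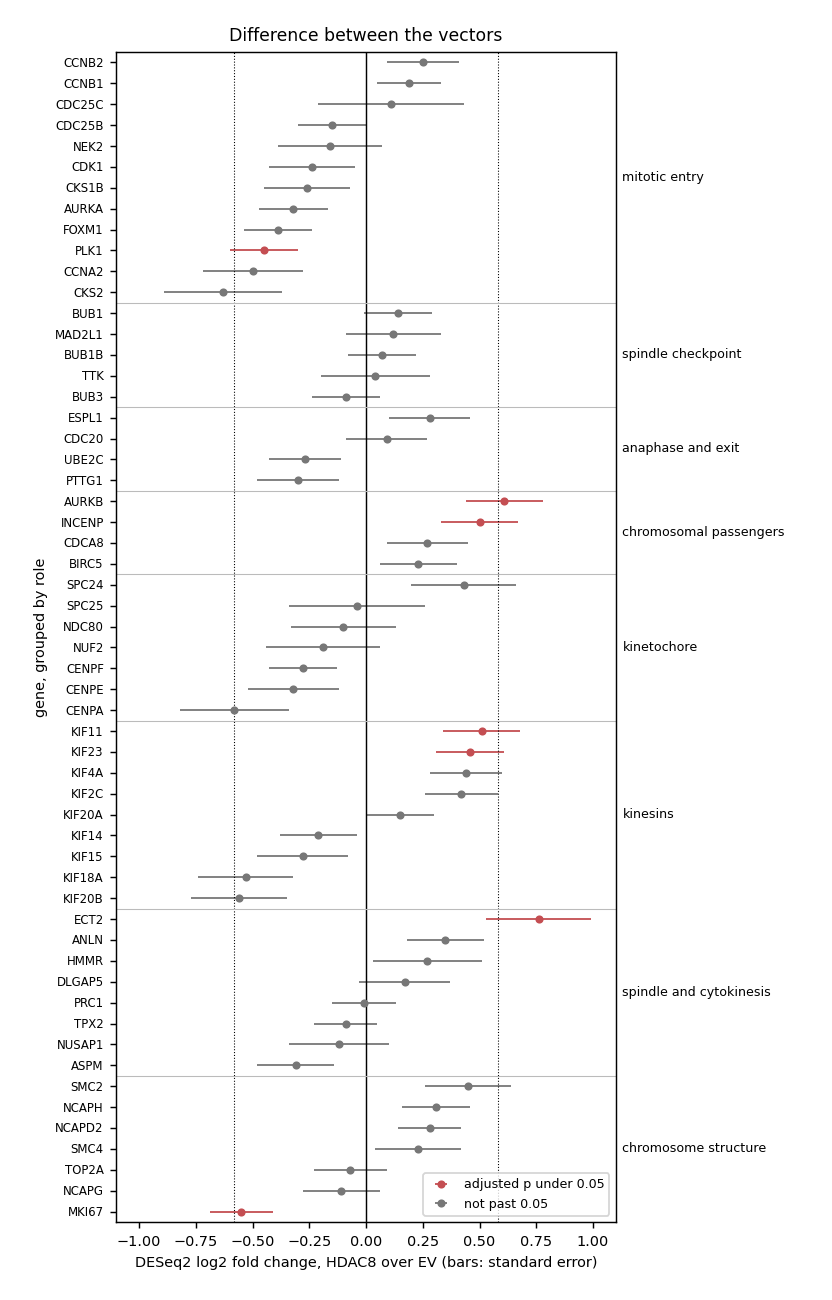
Points give the DESeq2 log2 fold change of the libraries labelled HDAC8 over EV for each of the 56 genes (rows, by role) with its standard error as a bar, red where the adjusted p is under 0.05, and dotted lines stand at 0.58 in both directions. The passenger genes lie right of 0, most entry and kinetochore genes left of 0, and the kinesins run from -0.56 to 0.51.

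HDAC8 1 was lower than its group in most members. It was the lowest of the 3 libraries labelled HDAC8 in 39 of the 56 genes (69.6%, against 42.4% of the genes with a mean count of at least 50) and the highest in 9. The log2 of its count over the mean of HDAC8 2 and 3 had a median of -0.26 over the members and -0.03 over those genes. The 2 sets also differed in the GC content of their transcripts, taken up below, with medians of 42% over the members and 48.2% over those genes. The distances were over 0.5 in size in 16 members, 28.6%, against 39.5% of all such genes. The widest were -0.93 in HMMR, -0.86 in NUSAP1, -0.82 in SPC25 and -0.81 in ECT2, and CKS2 and ESPL1 lay on the other side with 0.66 and 0.56. The median log2 level of the members over the EV mean was -0.28 in HDAC8 1, 0.03 and 0.06 in HDAC8 2 and 3, and -0.06 to 0.06 in the EV libraries.

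The distance of HDAC8 1 followed the base composition of the transcripts. Over the 56 members, its Spearman correlation with the GC content of the transcript was 0.70, and over 14238 genes it was 0.55. Among the 28 members with the lower GC content (34.3% to 41.9%), HDAC8 1 was the lowest of its group in 25, with a median distance of -0.46. Among the 28 with the higher GC content (42.1% to 59.1%) it was the lowest in 14, with a median of -0.08. EV 2 showed the same order within its own group, with a correlation of 0.80 over the members and 0.59 over all genes. The log2 fold change between groups followed GC less, at 0.15 over the members, and -0.05 without HDAC8 1. Genes are not independent replicates, and each of these correlations shares its libraries over all points, so they are given as descriptions.

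**Figure D4:**
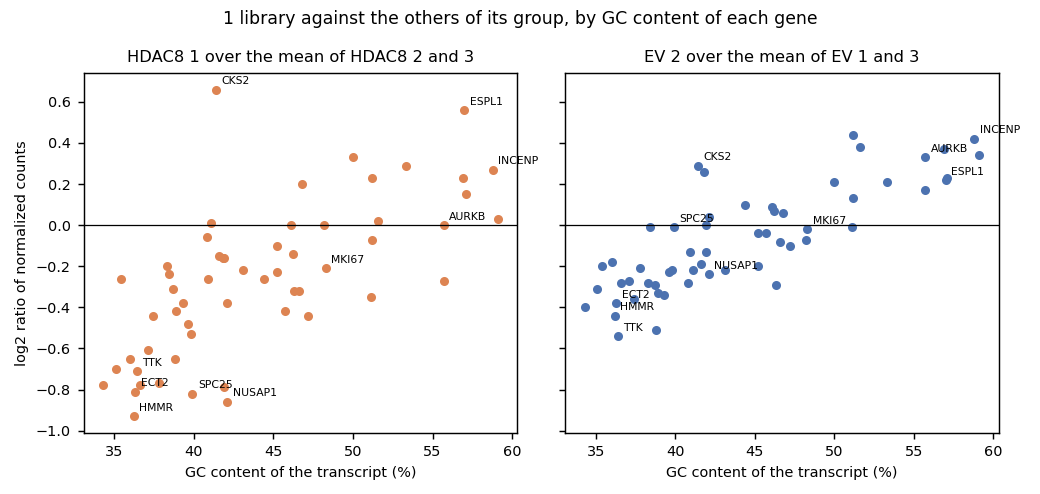
Each point is a member gene, placed by the GC content of its transcript (x axis, %) and by the log2 ratio of HDAC8 1 to the mean of HDAC8 2 and 3 (left) or of EV 2 to the mean of EV 1 and 3 (right). Both clouds rise with GC content (Spearman 0.70 and 0.80), from about the level of HMMR at the low end to INCENP and ESPL1 at the high end, with CKS2 above the left cloud.

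Because of these distances, the members were also read without HDAC8 1 and with normalization within 20 bins of GC content. Without HDAC8 1, 10 members passed the adjusted p upward (17.9%, against 7.77% of all genes) and 3 downward (5.36%, against 8.47%). With GC bins, 12 passed upward (21.4%, against 9.12%) and 6 downward (10.7%, against 8.60%). With both changes the counts were 19 upward (33.9%, against 13.9%) and 10 downward (17.9%, against 15.1%). By edgeR's quasi-likelihood test they were 3 (5.36%, against 4.43%) and 1 (1.79%, against 4.30%). Leaving out another library lowered the upward count to 1 without EV 1, EV 3 or HDAC8 3, to 2 without HDAC8 2 and to 4 without EV 2. The downward count was 1 without EV 1 or HDAC8 3, 0 without EV 3 and 3 without HDAC8 2. Over all genes, fewer were also called higher past both thresholds without EV 1, EV 3 and HDAC8 3 (886, 911 and 877, against 1170). Without HDAC8 2 and EV 2 they were 1104 and 1218. Shares of all genes past the adjusted p are not given for these fits.

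PLK1, AURKB, KIF11, KIF23, ECT2 and MKI67 passed in the fit of all libraries, without HDAC8 1 and with GC bins alike. KIF4A, HMMR, ANLN, SMC2 and SMC4 passed in both of the latter and not in the fit of all libraries. Their log2 fold changes without HDAC8 1 were 0.48, 0.51, 0.50, 0.58 and 0.44, all upward. FOXM1, CENPA, KIF18A and KIF20B passed downward with GC bins and neither in the fit of all libraries nor without HDAC8 1, and CKS2 passed downward without HDAC8 1 and not with GC bins. Upward, KIF2C (0.42, adjusted p = 0.00335) and NCAPH (0.35, adjusted p = 0.0286) passed with GC bins only. DLGAP5 passed upward without HDAC8 1 and not with GC bins. In HMMR and SMC4, HDAC8 2 and 3 were above every EV library, while HDAC8 1 (1481 and 7310 counts) was below every EV library.

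Other genes of the mitotic machinery are given by list, and each count past both thresholds stands beside the 5.57% of all genes called higher and 5.44% called lower. Of 34 further kinetochore and centromere genes, 0 passed in either direction by DESeq2, edgeR or limma-voom, and 2 higher and 4 lower genes were under an unadjusted p of 0.05, with a median log2 fold change of 0.00. Without HDAC8 1, ZW10, SPDL1 and ZWILCH passed the adjusted p upward (0.0135, 0.0261 and 0.0478) and ZWINT downward (0.000412), and with GC bins 4 passed upward and 0 downward. Among 19 genes of the anaphase-promoting complex and mitotic exit, FZR1, the activator of that complex in late mitosis and G1, was the 1 gene past both thresholds (5.26% of the list), with 1415, 1670 and 1212 counts in EV and 2573, 2229 and 1694 in the libraries labelled HDAC8 (0.60, adjusted p = 0.0412, and 0.124 without HDAC8 1). Among 15 genes of G2 and mitotic entry it was ARPP19, an inhibitor of the phosphatase PP2A-B55, which fell from 9369, 7117 and 9455 to 2693, 6039 and 4746 (-0.94, adjusted p = 0.000712). Without HDAC8 1, ANAPC13 passed the adjusted p upward among the mitotic exit genes (0.93, adjusted p = 0.00522). In the G2 list CHEK1 (0.76, adjusted p = 0.0029) and BORA (0.67, adjusted p = 0.0297) then passed upward, and ARPP19 downward. Over all genes 7.77% passed upward in that fit and 8.47% downward.

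Of 29 centrosome and spindle-pole genes, 2 rose past both thresholds (6.9%) and 0 fell. NUMA1, which tethers spindle poles, had 23395, 30607 and 26507 against 53183, 34221 and 38861 counts (0.65, adjusted p = 0.00199), and TACC3, a microtubule-bridging protein, had 2705, 3236 and 2732 against 5674, 3515 and 4310 (0.64, adjusted p = 0.0094). HDAC8 1 was the highest library in both, and without it the log2 fold changes were 0.44 and 0.43. Of 14 other motors and microtubule binders, TACC2 rose (0.89, adjusted p = 0.000234) and MAPRE1, the plus-end tracker EB1, fell (-0.63, adjusted p = 0.00291). TACC1 passed the adjusted p upward below the fold minimum (0.50, adjusted p = 0.00431). Of 14 cytokinesis genes with counts, CEP55, the midbody scaffold of abscission, rose (0.63, adjusted p = 0.0321), and the septin SEPT9 fell (-0.84, adjusted p = 3.52e-06). CHMP4B and RHOA passed the adjusted p downward below the fold minimum, at -0.56 and -0.50. Their adjusted p was 0.0307 and 0.0294 by DESeq2, and 0.0535 and 0.0537 by edgeR. CEP55 had 1900, 1868 and 2099 counts in EV and 2059, 3840 and 3190 in the libraries labelled HDAC8, the order seen in ECT2. RACGAP1, the partner of KIF23 in centralspindlin, did not pass, with 3306, 2998 and 3281 against 2805, 2785 and 2887 (-0.18, adjusted p = 0.546).

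Further genes of chromosome structure numbered 7, and their log2 fold change had a median of 0.46. CDCA2, a phosphatase subunit on chromatin, passed both thresholds with 2009, 1564 and 2044 against 2663, 3059 and 3246 (0.67, adjusted p = 0.00256), and the condensin II subunits NCAPD3 and NCAPG2 passed the adjusted p at 0.46 each (0.0228 and 0.0153 by DESeq2, 0.0808 and 0.0676 by edgeR, 0.0877 and 0.0659 by limma-voom). Among 10 tubulins TUBA1A fell (-0.59, adjusted p = 0.00399), and TUBA4A, with counts of 0.0 to 25.2 in EV and 104.3 to 126.0 in the libraries labelled HDAC8, passed upward with an adjusted p of 0.0341 (0.0703 without HDAC8 1). Of the genes named past both thresholds in these lists, FZR1, CEP55 and TUBA4A did not pass the adjusted p by limma-voom, and TUBA4A did not pass it by edgeR.

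Of 23 regulators of mitotic transcription, E2F5 and E2F2 rose and E2F7, a repressor, fell past both thresholds. E2F5 had 337.6, 241.0 and 194.1 against 338.6, 764.0 and 643.6 counts (1.18, adjusted p = 0.0177), E2F2 had 765.5, 998.4 and 677.8 against 1379, 1282 and 1176 (0.65, adjusted p = 0.0352, and 0.0723 without HDAC8 1), and E2F7 had 3321, 2673 and 3436 against 1798, 2422 and 2025 (-0.59, adjusted p = 0.0127). MYBL2, which encodes B-Myb, had 4336, 5221 and 4399 against 4432, 4471 and 4363 (-0.07, adjusted p = 0.864). MYBL1, which encodes A-Myb, had 917.5, 728.5 and 785.1 against 896.1, 1496 and 1170 (0.55, adjusted p = 0.134, and 0.0145 without HDAC8 1). Without HDAC8 1, 5 of the 23 passed the adjusted p upward, against 7.77% of all genes, and 1, E2F7, downward, against 8.47%. The 5 were E2F5, RB1 (0.90, adjusted p = 4.22e-06), RBL1, MYBL1 and E2F3. By limma-voom, E2F5 and E2F2 did not pass the adjusted p.

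Genes of the phases before mitosis were read in the same way. Of 32 S-phase genes, 9 were higher past both thresholds (28.1%, against 5.57% of all genes) and 0 lower (against 5.44%), also by edgeR and at an unadjusted p, and 7 and 0 by limma-voom, with a median log2 fold change of 0.47. ORC6, of the origin recognition complex, had 1338, 1104 and 1311 against 2477, 3163 and 2647 counts (1.14, adjusted p = 2.56e-08), and MCM4, of the replicative helicase, had 6996, 7803 and 8237 against 12854, 17627 and 16687 (1.03, adjusted p = 6.87e-10). MCM7, UHRF1 and MCM5 followed at 1.02, 0.87 and 0.82. Of 15 G1 cyclins, kinases and CDK inhibitors, CDK6 rose (1.14, adjusted p = 6.3e-06), and CDKN1B, CDKN2B, CDK2 and CDKN2A fell by 0.84, 0.79, 0.76 and 0.67 (26.7% of the list). Exon overlaps with other genes were looked up for the members only. Whether counts of list genes, CDK2 among them, hold reads of an overlapping gene was not tested. The difference between these lists and the members was not tested. All these lists were written with earlier results of the data known.

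Per kilobase of transcript, the EV level ran from 5146 normalized counts for UBE2C, 4393 for PTTG1 and 3386 for TOP2A down to 167.8 for CDC25C. MKI67, the most counted member, was the fourth on this scale with 2933, ahead of TPX2 with 2845. In the libraries labelled HDAC8 the level of MKI67 was 2010, below AURKB with 2793. The summed normalized count of the 56 genes took 0.673% to 0.753% of a library, with HDAC8 1 and EV 2 (0.683%) the lowest. Near-identical copies of members had summed counts of 16.3 to 120.2 per library, and PTTG2 and PTTG3P, the copies of PTTG1, had 5.6 each in EV 2 and 0.0 elsewhere.

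**Figure D5:**
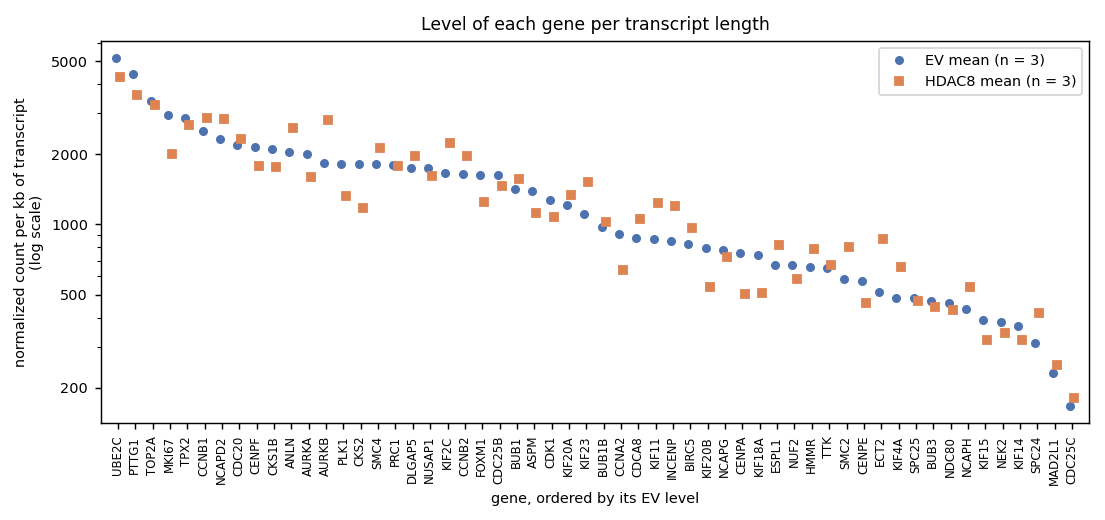
The mean normalized count per kilobase of transcript (log axis) is plotted for each gene in EV and in the libraries labelled HDAC8, ordered by the EV level. UBE2C is the highest (5146 in EV), CDC25C the lowest (167.8), and MKI67 drops from 2933 to 2010.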

How the data were processed

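Per the labels and the methods of the study, reads were sequenced in pairs, trimmed (Trimmomatic), aligned to transcripts (STAR) and quantified per gene (RSEM) by the authors. The deposited table holds RSEM expected counts, neither pooled nor scaled between libraries. Genome build, annotation, strand and duplicate removal are not given in the sources used here, and an expected count shares reads between similar genes. The RNA kit differs between the labels and the methods.

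Expected counts were rounded and 26162 genes with a total of at least 10 were compared with DESeq2 1.42.0 (Wald test, two-sided, R 4.3.3), with its size factors (0.918 to 1.17), no covariate and Benjamini-Hochberg adjustment over the 21021 genes that received an adjusted p. Intervals are at the 95% level from the DESeq2 standard error. Thresholds follow the methods of the study. Alternatives were edgeR 4.0.16, limma 3.58.1, other size factors and filters, a replicate block and each library left out. Normalization within 20 GC bins, alone and without HDAC8 1, was added after the data had been seen. The fits were tested on simulated counts with the same dispersion for all genes. These counts had no dependence on GC content and no library set apart, so how the fits handle those features was not tested. Transcript length, GC content and exon overlaps came from GENCODE 44 (GRCh38), in which all 56 genes were found. Same-numbered libraries did not deviate together (correlations -0.027, -0.066 and 0.04 over 14451 genes) and were not treated as pairs.

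Members and gene lists were chosen with earlier results of these data known. Named by rule were members past the adjusted p, the 2 most counted of each role, the 4 with the widest distance of HDAC8 1, up to 5 genes per list past both thresholds, HDAC8, MYBL1 and MYBL2 and copies of members with counts. Other genes named were chosen after their values were seen. The values of 1 overlapping gene and the name of 1 marker are not reported here.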

Additional observations from a re-analysis of the deposited data

How the results depend on the processing

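Over all genes, 1170 were called higher and 1143 lower. An unadjusted p under 0.05 gave 1839 and 1856, and GC bins without HDAC8 1 gave 2024 lower. The count of members past the adjusted p (5 higher and 2 lower) was 3 and 1 by edgeR, 2 higher by limma-voom, 1 lower with total-count size factors, 5 lower where each library needed 10 counts, 12 and 6 with GC bins, and 19 and 10 with GC bins and no HDAC8 1. With the replicate number as a block it was 2 higher and 1 lower, and the numbers do not pair the libraries. Shares of all genes past the adjusted p are not given for the limma-voom, total-count, 10-count and block fits. They are also not given where a library other than HDAC8 1 was left out. Past both thresholds, where 0 members were lower, the count was 1 by limma-voom (KIF20B), 2 where each library needed 10 counts (CKS2 and CENPA), 1 with GC bins and no HDAC8 1 and 2 with an unadjusted p. When each library was left out in turn, genes called higher ran from 877 to 1218 and lower from 746 to 1378, members called higher from 0 to 3 and lower from 0 to 2, and members past the adjusted p from 1 to 10 higher and from 0 to 3 lower. The causes were not tested. Over the 56 members and 16 alternatives, 778 of 896 results kept their sign and side of the adjusted p, 54 passed it newly, 37 lost it and 27 changed sign. The sign changes fell on 12 members that were not past the adjusted p in those fits (0.424 or more). With GC bins the log2 fold change was 0.020 for BUB3, -0.013 for CDC20, 0.010 for SPC25, 0.001 for PRC1 and 0.013 for TOP2A, and with GC bins and no HDAC8 1 it was 0.014 for NDC80, 0.145 for SPC25, 0.010 for TPX2, 0.118 for NUSAP1 and 0.016 for TOP2A. Total-count size factors gave 0.035 for PRC1. When each library was left out it ran from -0.020 to 0.203 for CDC25C, -0.044 to 0.203 for MAD2L1, -0.135 to 0.241 for TTK, -0.213 to 0.043 for NDC80, -0.297 to 0.187 for SPC25, -0.141 to 0.008 for TPX2, -0.329 to 0.113 for NUSAP1, -0.002 to 0.383 for DLGAP5, -0.082 to 0.047 for PRC1 and -0.172 to 0.056 for TOP2A. With 3 libraries per group, the members had standard errors of 0.14 to 0.32 on the log2 scale. Changes well above their standard error also missed the adjusted p by DESeq2 in the fit of all libraries. Examples were -0.63 in CKS2 (SE 0.26, adjusted p = 0.095) and 0.42 in KIF2C (SE 0.16, adjusted p = 0.0505).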
